A study of Fundulus heteroclitus with 53 samples.

Results

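The livers of 10 juvenile Atlantic killifish (Fundulus heteroclitus) from Scorton Creek (SC) were compared here, 5 held under severe hypoxia and 5 under mild hypoxia. They are 10 of the 30 liver RNA libraries of the series, and they were chosen only by the population and the oxygen level in their labels. Severe hypoxia was 5% oxygen and mild hypoxia was 10% oxygen, each for 6 h, and both groups were 6-month-old fish bred in the laboratory from wild SC parents. SC controls, 5 fish of the same age kept in ambient oxygen, and 10 fish from New Bedford Harbor (NBH), a population from a polluted site, held at the same 5% and 10% oxygen, appear only where they show how the SC difference stands. Severe and mild fish sat in chambers fed with air of 5% or 10% oxygen, so chamber and oxygen cannot be told apart between them. Controls stood on the benchtop and not in the hypoxia chambers, so the same holds in comparisons with them. The SC fish descend from a few parents and the family of each fish is not given, so variation between families could not be measured. The p-values reflect how much fish varied within groups, estimated over the 30 libraries of both populations. Each library holds the RNA of 1 whole liver, so fewer cells of a type and less RNA per cell cannot be told apart.

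In vertebrates, oxygen is sensed by prolyl hydroxylases (the egln genes), which mark the alpha subunits of hypoxia-inducible factor (HIF) for destruction through the von Hippel-Lindau protein (vhl). When oxygen is short the alpha subunits persist, pair with arnt and switch on genes for glycolysis, blood vessel growth and red cell formation, among them egln3 itself, which closes a feedback loop. Short oxygen also depletes ATP and disturbs protein folding, and cells answer with heat shock chaperones, the integrated stress response and short-lived immediate-early transcription factors.

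Total counts were 6867133 to 15404373 per fish under mild hypoxia and 17914396 to 23849931 under severe hypoxia. The severe libraries were all deeper than the mild ones, so depth and oxygen level cannot be told apart by design. The main counts are given also after thinning each larger library to 6867133 counts and after fitting the log2 total count as a covariate. NBH severe replicate 5 (4955114 counts) and SC control replicate 5 (6591150 counts) were smaller and were left as they were. Neither thinning nor the covariate can separate depth from oxygen level, since the SC groups did not overlap in depth. The liver label was checked on 7 tested hepatocyte markers, whose summed level was 83936 to 115576 CPM (a gene's count scaled to a library of 1000000) in mild fish and 85292 to 97552 CPM in severe fish, with none called between groups. Skeletal muscle markers summed to 1.76 to 16.5 CPM in mild fish and 0.126 to 5.39 CPM in severe fish, and 0 of 5 were called.

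Of 13609 genes tested, 395 differed between severe and mild hypoxia, which is 2.90% of them (edgeR, quasi-likelihood test, Benjamini-Hochberg adjusted p under 0.05). Higher levels under severe hypoxia were found for 275 genes (2.02%) and lower levels for 120 genes (0.882%). The median log2 fold change was 1.40 among the genes that rose and −1.21 among those that fell, and 197 and 76 of them moved more than 2-fold. Over all tested genes the median was −0.00. The 5 severe fish lay wholly above the 5 mild fish for 185 of the 275, and wholly below them for 64 of the 120. The same separation was seen in 343 (2.52%) and 207 (1.52%) of all tested genes. After thinning, 297 genes were called, 281 of them among the 395, and with the depth covariate 213 were called, 167 of them among the 395. Left without 1 fish, the count was 201 to 391, lowest without SC mild replicate 2, and it was 212, 216 and 242 without severe replicate 1, severe replicate 2 and mild replicate 5. Without normalisation factors, 318 of 389 calls were higher, 81.7% against 69.6% in the main test, with the median of all genes at 0.10.

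**Figure D1:**
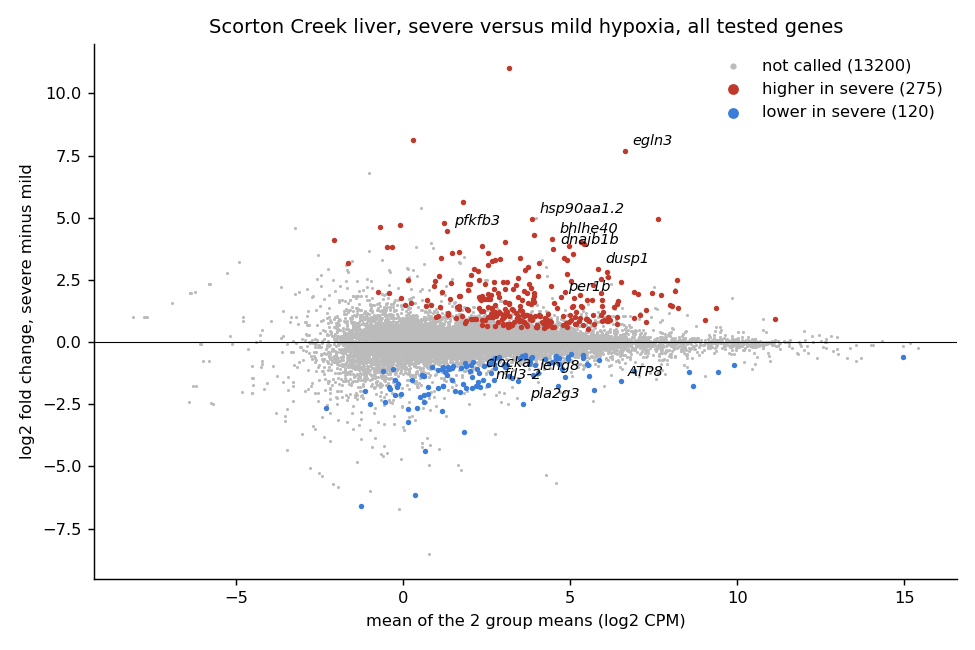
Each point is a tested gene with at least 1 count in the 10 fish, plotted by the log2 of the mean of both group means in CPM (x axis) and by its log2 fold change, severe minus mild (y axis), with 275 genes that rose in red and 120 that fell in blue. egln3 lies at 7.69, and si:ch73-335l21.4, without reads in the mild fish, lies above it. pla2g3, at −2.47, is the lowest only among named genes with a mean of at least 5 CPM and no overlap. Some genes under that CPM limit lie further below the line, with marveld2b at −6.60 and mogat2 at −6.15.

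Among genes with a mean of at least 5 CPM over the 10 fish and whose groups did not overlap, the 12 that rose most were si:ch73-335l21.4, egln3, hsp90aa1.2, bhlhe40, si:ch211-39i2.2, ier2b, ppp2cab, dnajb1b, trib3, si:dkey-79d12.5, crema and bhlhe41. They include an oxygen sensor, a pair of chaperone genes, a pair of clock repressors and several stress-responsive regulators. No reads at all were counted for si:ch73-335l21.4 (chromosome 14, 16753829 to 16755493) in the 5 mild fish, while severe fish 1 to 5 had 33.5, 25, 10.9, 16.4 and 4.78 CPM. With each mild library set at 3 counts, the limit that a count of 0 allows, the level was at least 54.2-fold higher under severe hypoxia (adjusted p = 0.00165, edgeR). The SC controls had 0.193 to 16.1 CPM, so the mild group was the lowest of the 3. ppp2cab, which encodes a catalytic subunit of protein phosphatase PP2A, was at 3.38 to 6.77 CPM in mild fish and at 151, 116, 19.2, 22.1 and 92.1 CPM in severe fish 1 to 5 (log2 fold change 3.94, SE 0.67, adjusted p = 0.000853). The 2 unnamed genes si:ch211-39i2.2 and si:dkey-79d12.5 rose by 4.03 and 3.35 on the log2 scale. Their SC control means were 0.570 and 3.87 CPM, against 0.957 and 1.29 CPM in mild fish. For si:dkey-79d12.5 the difference of mild fish from controls was −1.55 (adjusted p = 0.027, edgeR).

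The 12 genes that fell most by the same rule were pla2g3, nfil3-2, ATP8, cahz, slc27a1a, leng8, mcrip2, scarb2a, ppp1r10, trim25, gid4 and slc25a34. Their changes were smaller than those on the higher side and ran from −2.47 to −0.89 on the log2 scale. The gene at the head, pla2g3 (chromosome 8, 32867246 to 32880073), encodes a secreted phospholipase A2. It was at 13.6, 44.0, 16, 11.4 and 16.1 CPM in mild fish and at 4.23, 1.40, 4.47, 6.31 and 1.76 CPM in severe fish (log2 fold change −2.47, SE 0.54, adjusted p = 0.00842, edgeR). Its SC control mean was 69.7 CPM, so the level was lower at each lower oxygen level. slc27a1a, a fatty acid transport protein, fell from 13.1 ± 3.97 to 5.00 ± 0.919 CPM (SD, n = 5 each), and the lysosomal membrane protein gene scarb2a fell from 168 ± 39.9 to 74.5 ± 18 CPM. Below the 5 CPM limit, and chosen after its values were seen, marveld2b, a tight junction protein gene, had 44 counts over the 5 mild fish and 0 in the severe fish, at least 6.25-fold lower with each severe library set at 3 counts.

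The oxygen sensor egln3 had the largest fitted change of the named genes with reads in both groups. Of 13 tested genes for oxygen sensing and HIF feedback, 2 rose and 0 fell, with a median log2 fold change of 0.40. The 2 were 15.4% of the list, against 2.02% of all genes. This list and those below were chosen with earlier results of these data known, so their shares are descriptions only. egln3 (chromosome 19, 33648879 to 33661406) was at 0.645, 0.640, 1.35, 0.356 and 1.87 CPM in mild fish 1 to 5. In severe fish 1 to 5 it was at 155, 300, 19.6, 9.22 and 504 CPM. The lowest severe fish stood well above the highest mild fish, but severe fish 3 and 4 were far below the other three. The log2 fold change was 7.69 (SE 0.94, adjusted p = 2.08e-05, edgeR), and it was called under all 21 alternatives that gave it a value. The SC control mean was 0.419 CPM, and the difference of mild fish from controls was 1.1 on the log2 scale (adjusted p = 0.51).

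egln2, a second prolyl hydroxylase, also had severe fish 3 and 4 as its lowest severe fish. It was at 3.69, 2.43, 1.89, 1.54 and 3.38 CPM in mild fish and at 14.8, 9.83, 2.35, 2.62 and 19.5 CPM in severe fish. Severe fish 3 and 4 lay inside the mild range, and the difference of 1.90 (SE 0.46, adjusted p = 0.0208, edgeR) was called in 14 of 22 alternatives. The third hydroxylase, egln1a, was at 2.28 CPM against 4.25 CPM on average, a difference of 0.89 that did not pass the test (adjusted p = 0.10).

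Unlike egln3 and egln2, the mRNAs of the HIF subunits, of vhl and of hif1an did not pass the test. hif1aa was at 33.8 ± 3.90 CPM under mild and 39.8 ± 11.6 CPM under severe hypoxia (SD, n = 5 each). For hif1al, a HIF alpha gene of fish, every severe fish (92.0 to 109 CPM) exceeded every mild fish (30.4 to 68.8 CPM), yet its log2 difference of 1.05 had an adjusted p of 0.0883 (edgeR). epas1a, which encodes another HIF alpha subunit, was at 3.98 CPM against 2.98 CPM. The values of vhl were 3.91 and 2.92 CPM, those of arnt 3.24 and 4.69 CPM, and those of hif1an, the asparagine hydroxylase that also restrains HIF, 5.12 and 6.63 CPM.

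Of 33 tested genes known as hypoxia-induced in vertebrates, 3 rose and 0 fell (median 0.19), and the members that rose were pfkfb3, narf and tmem45a. The 3 were 9.09% of the list, against 2.02% of all genes. SC controls had 1.56 CPM of tmem45a, against 0.441 CPM in mild and 1.46 CPM in severe fish. pfkfb3 makes a fructose bisphosphate that activates glycolysis. It was at 0.117 to 0.406 CPM in mild fish and at 7.45, 6.28, 1.01, 1.12 and 7.95 CPM in severe fish 1 to 5. The groups did not overlap and severe fish 3 and 4 were again the lowest of their group. Its log2 fold change was 4.47 (SE 0.78, adjusted p = 0.00115, edgeR), called in all 21 alternatives that gave a value. The erythropoietin gene epoa, the hormone that drives red cell production, was at 13.5, 10.4, 1.70, 2.14 and 26.4 CPM in severe fish 1 to 5 against 0.541 to 2.94 CPM in mild fish. Fish 3 and 4 stayed inside the mild range, and the difference of 2.44 had an adjusted p of 0.0632.

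**Figure D2:**
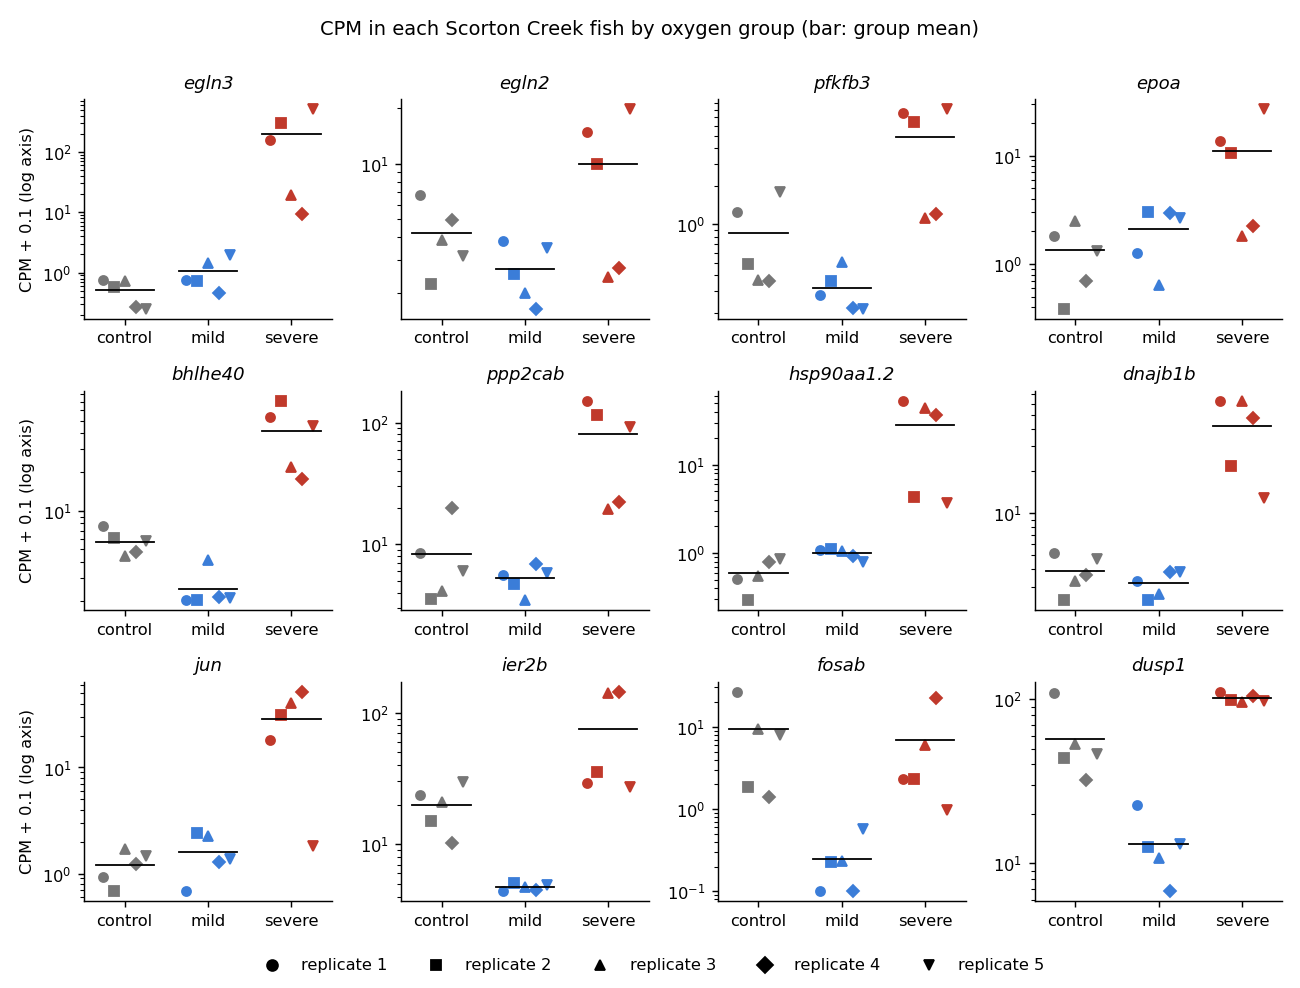
CPM plus 0.1 on a log axis for 12 genes in the 5 SC fish of each oxygen group, with a marker shape for each replicate number and a bar at the group mean. In egln3, egln2, pfkfb3, epoa, bhlhe40 and ppp2cab severe replicates 3 and 4 are the lowest of the severe fish, in hsp90aa1.2 and dnajb1b replicates 2 and 5 are, and in ier2b replicates 3 and 4 are the highest.

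Immediate-early genes had the highest share of members that rose among the 24 gene lists. They encode transcription factors and MAP kinase phosphatases that are transcribed within minutes of a stimulus and whose mRNAs are quickly degraded. Of 43 tested members of this list, 18 rose and 0 fell, 41.9% of the list against 2.02% of all genes, and the median log2 fold change was 1.33 against −0.00 over all genes. The count of members that rose was 15 to 18 when any 1 fish was left out, 18 after thinning and 15 with the depth covariate. The AP-1 subunit gene jun was at 0.586 to 2.30 CPM in mild fish and at 18, 30.8, 40.6, 51.1 and 1.71 CPM in severe fish 1 to 5. Its log2 fold change was 4.30 (SE 0.64, adjusted p = 0.000223, edgeR), although severe fish 5 remained within the mild range. The same fish was lowest of its group for fosab and atf3. For ier2b the mild fish were within 4.28 to 4.99 CPM, while severe fish 3 and 4 reached 141 and 143 CPM and the other three had 27 to 35.3 CPM (log2 fold change 4.02, adjusted p = 0.000211). These 2 fish were the low ones for egln3.

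The MAP kinase phosphatases, which switch off the kinases that induce immediate-early genes, were represented by dusp1, which was at 22.6, 12.4, 10.7, 6.65 and 12.9 CPM in mild fish and at 110, 99.2, 96.3, 104 and 97.3 CPM in severe fish. The severe fish lay close together and above every mild fish, with a log2 fold change of 2.94 (SE 0.38, adjusted p = 3.17e-05, edgeR). dusp8a rose by 3.63, dusp16 by 2.40 and dusp7 by 1.24 on the log2 scale. klf9, a transcription factor that responds to glucocorticoids, rose from 18 to 103 CPM. Also higher were atf3, klf6a, maff, ier2a, trib1, and zfp36l1a, a gene whose product destabilises short-lived mRNAs.

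Several of these genes were lower in mild hypoxia than in controls, so part or all of the step between mild and severe fish lay under the level of controls. Both comparisons share the mild fish, and the values are given side by side. fosab was at 9.25 CPM in controls, 0.146 CPM in mild and 6.74 CPM in severe fish, and its difference of mild from control was −6.10 (adjusted p = 0.002). dusp1 was at 56.8, 13.1 and 101 CPM in the 3 groups, ier2b at 19.9, 4.61 and 75.0 CPM and trib1 at 54.8, 21.3 and 69.4 CPM. Severe fish differed from controls by −0.47 for fosab, 0.83 for dusp1 and 0.34 for trib1 on the log2 scale. These did not pass the test (adjusted p = 0.69, 0.072 and 0.58, edgeR), while the 1.92 of ier2b did (adjusted p = 0.00824). crema, which encodes cyclic AMP-responsive regulators, was at 0.933 to 1.92 CPM in mild fish, 7.61 to 16.2 CPM in severe fish and 3.67 to 7.66 CPM in 4 controls, with the fifth control at 124 CPM. Its rise of 3.28 over mild fish (adjusted p = 0.0351, edgeR) was lost whenever any 1 fish was left out. The difference of severe fish from controls was −1.30 for crema and did not pass the test (adjusted p = 0.18). By contrast, jun was at 1.1 CPM in controls and 1.5 CPM in mild fish.

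Chaperone genes changed over a wide range of sizes. Of 53 tested chaperone and heat shock genes, 6 rose (11.3% against 2.02% of all genes) and 0 fell (median 0.15). The 6 that rose were hsp90aa1.2, dnajb1b, hspa4a, hspbp1, serpinh1b and dnajb2. Their log2 fold changes ran from 1.09 (dnajb2) to 4.95 (hsp90aa1.2), and serpinh1b encodes a collagen chaperone of the endoplasmic reticulum, not a cytosolic one. serpinh1b was at 1.58 CPM in controls, 0.544 CPM in mild and 1.55 CPM in severe fish. Its difference from controls was −1.53 in mild fish (adjusted p = 0.00516, edgeR) and −0.03 in severe fish (adjusted p = 0.96). hsp90aa1.2 (chromosome 15, 18691479 to 18696088), an HSP90 alpha gene, was at 0.699 to 1.02 CPM in mild fish and at 53.1, 4.21, 43.6, 37.0 and 3.61 CPM in severe fish 1 to 5. The DNAJ co-chaperone gene dnajb1b was at 2.30 to 3.73 CPM in mild fish and 63.0, 21.39, 62.7, 47.5 and 12.6 CPM in severe fish. In both genes severe fish 1, 3 and 4 were the high ones and 2 and 5 the low ones, a different order from that of egln3. The log2 fold changes were 4.95 (SE 0.75, adjusted p = 0.000247) and 3.74 (SE 0.41, adjusted p = 4.72e-06, edgeR). Neither gene overlapped between groups, and both were called under every alternative that gave them a value. zfand2a, which encodes a stress-induced partner of the proteasome, was not on the list and rose from 6.75 to 22.6 CPM (log2 fold change 1.74, adjusted p = 0.000229).

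Genes of the endoplasmic reticulum and of the integrated stress response rose in small number. Of 54 tested, 5 rose (9.26% against 2.02% of all genes) and 0 fell (median 0.15), namely trib3, ppp1r15b, hsp90b1, xbp1 and nupr1b. trib3, a pseudokinase gene induced by ATF4 and CHOP in mammals, was at 1.64, 2.05, 2.43, 1.07 and 2.80 CPM in mild fish and 19.3, 24.2, 19.6, 19 and 20.4 CPM in severe fish. ppp1r15b, whose product directs the removal of phosphate from the initiation factor eIF2 alpha, was at 1.89 to 4.04 CPM in mild fish and 13.4 to 23.3 CPM in severe fish. Both were separated between groups with little spread within them, at log2 fold changes of 3.37 (SE 0.52, adjusted p = 0.000277) and 2.56 (SE 0.37, adjusted p = 0.000151, edgeR). The lumenal chaperone gene hsp90b1 rose from 165 to 429 CPM and the transcription factor gene xbp1 from 88.3 to 186 CPM. These were less stable and were called without 1 fish in 2 and 1 of 10 cases (adjusted p = 0.038 and 0.042). SC controls had 8.18 CPM of trib3, 68.3 CPM of hsp90b1 and 156 CPM of xbp1, so trib3 and xbp1 were lowest in the mild group. For trib3 the difference of mild fish from controls was −2.05 on the log2 scale (adjusted p = 0.00851, edgeR). Its difference of severe fish from controls was 1.32 (adjusted p = 0.0321).

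The circadian clock genes moved in both directions. The clock is a loop in which CLOCK and its ARNTL partners activate the period (per), cryptochrome (cry), REV-ERB (nr1d) and DEC (bhlhe40, bhlhe41) repressors. Of 28 tested clock genes, 11 rose (39.3% against 2.02% of all genes) and 2 fell, where 0.882% of all genes fell. The median log2 fold change of the 28 was 0.73. The time of day at which each group was sampled is not given, so its part in these values was not tested. Among those that rose were the repressors bhlhe40, bhlhe41, per1b, per3, nr1d1, nr1d4a, cry1b and cry2, and those that fell were clocka and per2. Without any 1 fish, 6 to 11 rose and 2 to 3 fell. After thinning 10 rose and 2 fell, and with the depth covariate 10 rose and 0 fell.

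bhlhe40 (chromosome 20, 37787680 to 37791992) was at 1.93, 1.92, 4.06, 2.02 and 1.98 CPM in mild fish and at 53.3, 71.2, 21.7, 17.6 and 45.3 CPM in severe fish. Every severe fish was above every mild fish, and the log2 fold change of 4.15 (SE 0.41) had an adjusted p of 7.04e-07 (edgeR). The SC control mean of bhlhe40 was 5.62 CPM, and mild fish differed from controls by −1.26 (adjusted p = 0.0317). Severe fish were above controls by 2.89 on the log2 scale. In mammals both DEC genes are also HIF targets. bhlhe41 rose from 3.34 to 30.1 CPM, by 3.20 on the log2 scale. Both had severe fish 3 and 4 as their lowest severe fish.

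per1b rose from 11.4 ± 4.39 to 41.0 ± 10.1 CPM (SD, n = 5 each), a log2 fold change of 1.83 (SE 0.25, adjusted p = 8.76e-05, edgeR). per2, a light-responsive period gene in fish, was at 17.4, 59.8, 59.3, 26.6 and 28.8 CPM in mild fish and at 13.7, 3.51, 14.7, 18.9 and 5.51 CPM in severe fish. All but severe fish 4 were below the lowest mild fish, and the log2 fold change was −1.77 (SE 0.36, adjusted p = 0.00543). clocka (chromosome 9, 31132097 to 31168136) was at 5.71 to 8.52 CPM in mild fish and 2.15 to 3.60 CPM in severe fish. The log2 fold change was −1.24 (adjusted p = 0.0133). Its SC control mean was 3.34 CPM. Mild fish were above controls by 1.01 on the log2 scale (adjusted p = 0.0202, edgeR). Severe fish differed from controls by −0.23, which did not pass the test (adjusted p = 0.58). With the depth covariate neither per2 nor clocka passed the test (adjusted p = 0.083 and 0.14). nfil3-2, one of several fish copies of a repressor of clock output genes, fell from 8.95 to 2.72 CPM, while the copy nfil3-6 rose from 11.5 to 34.3 CPM.

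**Figure D3:**
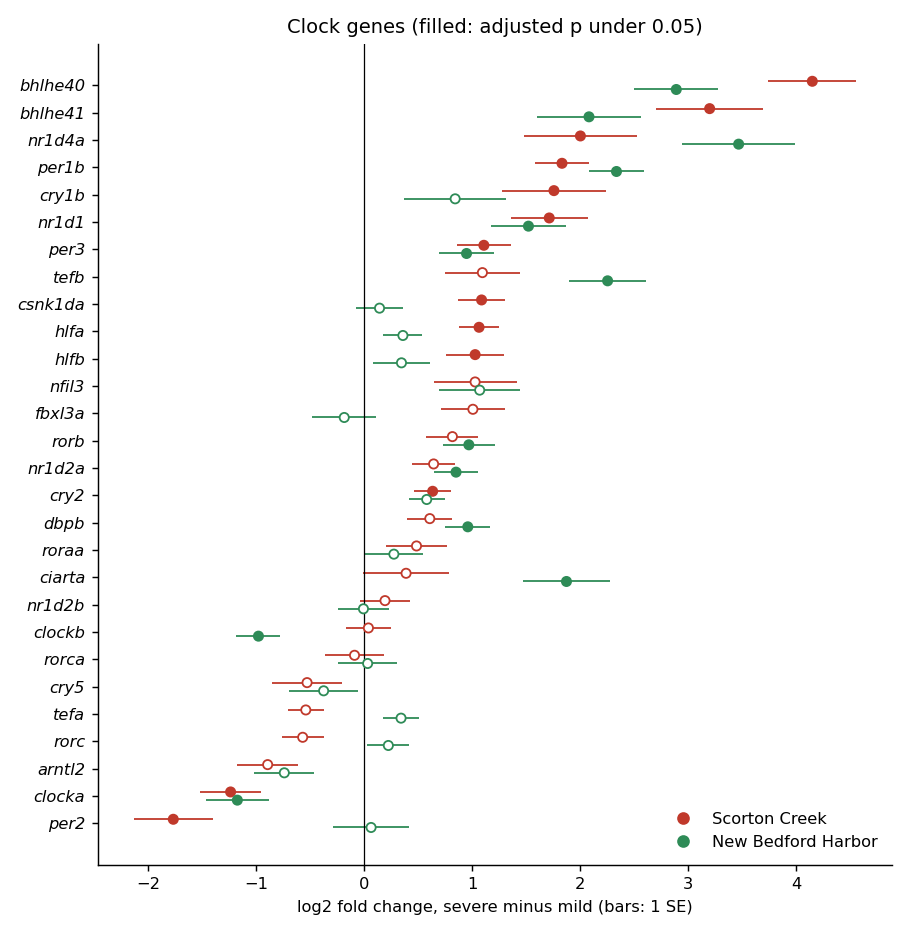
Log2 fold change, severe minus mild, with 1 SE for each of 28 tested clock genes in SC (red) and in NBH (green), filled where the adjusted p was under 0.05. bhlhe40 at 4.15 and bhlhe41 at 3.20 lie furthest to the right for SC, and per2 at −1.77 and clocka at −1.24 furthest to the left.

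The metabolic gene lists are given with their counts beside the 2.02% of all genes that rose and the 0.882% that fell. Of 37 tested genes of glycolysis and gluconeogenesis, 2 rose and 0 fell (median −0.01), pfkfb3 and g6pca.2. The glucose-6-phosphatase gene g6pca.2, which releases glucose from the liver, was at 1537 CPM under mild and 2945 CPM under severe hypoxia. Its SC control mean was 2564 CPM, and the difference of severe fish from controls did not pass the test (adjusted p = 0.58, edgeR). None of 28 genes of the TCA cycle, of 36 of fatty acid and sterol synthesis, of 30 of iron and heme or of 45 plasma protein genes was called, with medians between −0.03 and 0.09. At an unadjusted p under 0.05 these 4 lists had 4, 4, 2 and 1 genes. Of 36 genes of fatty acid oxidation, 27 had a negative log2 fold change (median −0.20), 1 rose and 1 fell, and 13 had an unadjusted p under 0.05, a level that 1899 of all 13609 genes (14%) reached. The one that fell, acsl1a, activates long-chain fatty acids and was at 8.65 CPM against 3.68 CPM (log2 fold change −1.22, adjusted p = 0.0279, edgeR). The one that rose, the lipid-sensing receptor gene pparaa, was at 17.7 to 30.9 CPM in mild fish and at 72.1, 77.3, 32.3, 24.1 and 91.7 CPM in severe fish, again with fish 3 and 4 lowest. In the breakdown of amino acids 1 of 52 genes rose, tdh (threonine dehydrogenase), from 9.89 to 54.7 CPM. The 1 that fell was bcat2 (branched-chain aminotransferase), from 27.7 to 16 CPM. Their SC control means were 108 and 31.5 CPM, above both hypoxia groups. For tdh the difference of mild fish from controls was −3.43 on the log2 scale (adjusted p = 0.000609, edgeR).

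Nuclear receptors are the ligand-activated transcription factors that set liver metabolism. Of 41 members, 6 were higher (14.6% against 2.02% of all genes) and 0 lower (median 0.14). They were pparaa, the hepatocyte regulator hnf4a, the retinoid X receptors rxraa and rxrgb, and the clock receptors nr1d1 and nr1d4a. hnf4a was at 106, 72.6, 66.0, 93.6 and 72.6 CPM in mild fish and 185, 229, 116, 109 and 158 CPM in severe fish, separated between groups (log2 fold change 0.96, SE 0.19, adjusted p = 0.00406, edgeR). In insulin, IGF and mTOR signalling 2 of 38 rose (5.26% against 2.02% of all genes, median 0.22). They were the transcription factor gene foxo1a and the autophagy kinase gene ulk2. foxo1a was at 18.5 CPM in controls, 4.71 CPM in mild and 16.9 CPM in severe fish, and ulk2 at 110, 41.5 and 130 CPM. Both were thus high, low and high in the 3 groups. foxo1a lost its call whenever 1 fish was left out (adjusted p = 0.0441 with all fish).

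Among 32 tested genes of apoptosis and the p53 response, 3 rose (9.4% against 2.02% of all genes) and 0 fell (median 0.29). mcl1b, which protects cells from apoptosis, was at 2.05 to 5.47 CPM in mild fish and 9.12 to 35.2 CPM in severe fish (log2 fold change 2.31, SE 0.38, adjusted p = 0.000667, edgeR). xiap, a caspase inhibitor gene, rose from 22.9 to 42.2 CPM. The cell cycle inhibitor cdkn1ba rose from 1.08 to 7.17 CPM. bmf2, a pro-apoptotic gene that was not on the list, was at 0.293 to 0.816 CPM in mild fish and 1.66 to 4.08 CPM in severe fish (log2 fold change 2.24, adjusted p = 0.00126). Of 21 amino acid transporters, 2 rose (9.52% against 2.02% of all genes, median 0.09). They were slc38a2, from 29.5 to 94.8 CPM, and slc38a3b, from 7.71 to 16.4 CPM, and slc38a2 was at 114 CPM in controls.

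Smaller counts were found in the remaining lists, beside the 2.02% of all genes that rose and the 0.882% that fell. In antioxidant and glutathione genes 1 of 37 rose (txnipa) and 1 fell (gpx1a), with a median of 0.04. In cytokine and NF-kB signalling 1 of 41 rose, the inhibitor gene nfkbiab, from 9.50 to 15.9 CPM. In bile acid and organic ion transport 1 of 29 fell, slco2b1. Its mild mean of 2 CPM rested on fish 4 at 7.37 CPM, and its call was lost without that fish. None of 46 proteasome genes (median 0.06, 1 at an unadjusted p under 0.05) and none of 18 collagen genes (median −0.70, 6 at an unadjusted p under 0.05) was called by edgeR. In ribosome biogenesis 2 of 82 rose (2.44%, near the share of all genes), wdr43 and ddx49. Of the 82, 73 had a positive log2 fold change (median 0.24). In NBH the same list had a median of −0.36, with 3 genes called lower and 0 higher, where 0.625% of all genes were called lower. The SC means of wdr43 were 37.2 CPM in controls, 26.6 CPM in mild and 43.7 CPM in severe fish.

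**Figure D4:**
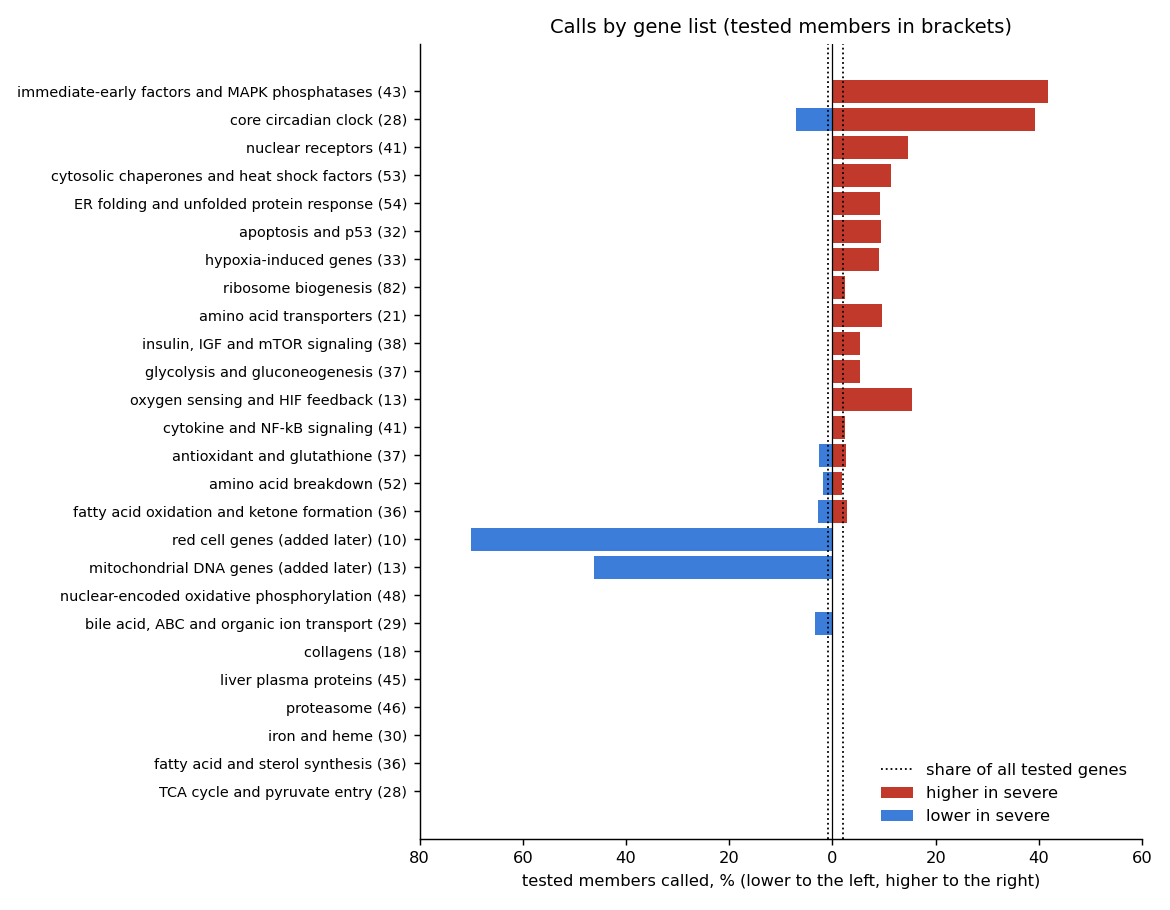
Share of the tested members of each gene list (number tested in brackets) called higher (red, right) or lower (blue, left) under severe hypoxia, with dotted lines at the shares of all tested genes, 2.02% and 0.882%. Immediate-early genes with 18 of 43 and clock genes with 11 of 28 reach furthest to the right. The lists on the far left, red cell and mitochondrial DNA genes, were added after values were seen. The other lists were chosen with earlier results of these data known.

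All 13 mRNAs encoded by mitochondrial DNA had a lower fitted level under severe hypoxia, with a median log2 fold change of −0.91. Of them, 6 passed the test, beside 0.882% of all genes called lower. The 13 encode core subunits of the respiratory chain and of ATP synthase. The list was added after the values were seen, and its members are cut from long shared transcripts and are not independent of each other. ATP8 (mitochondrial genome, 7948 to 8115) was at 123, 230, 124, 61.8 and 143 CPM in mild fish and 50.8, 29.1, 47.6, 41.7 and 61.1 CPM in severe fish. The groups did not overlap, but mild fish 4 and severe fish 5 came within 1 CPM of each other (log2 fold change −1.57, SE 0.31, adjusted p = 0.00401, edgeR). ND1 (mitochondrial genome, 2842 to 3816) was at 605, 520, 651, 255 and 573 CPM in mild fish and 134, 91.1, 222, 334 and 347 CPM in severe fish. Mild fish 4 was the low one here as well, and lay inside the severe range (log2 fold change −1.21, adjusted p = 0.0322). ND3, ND4, ND4L and ND5 also fell.

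The abundant cytochrome oxidase mRNAs did not pass the test. COX1 was at 16164 CPM under mild and 10351 CPM under severe hypoxia (log2 difference −0.64, adjusted p = 0.339), and COX2 at 15015 and 8867 CPM. Mitochondrial genes took 3.37 to 7.41% of the counts in mild fish and 2.71 to 4.80% in severe fish. None of 48 nuclear-encoded genes of oxidative phosphorylation was called (4 at an unadjusted p under 0.05, edgeR), and their median was 0.08. The number of mitochondrial mRNAs that fell was 1 to 7 when any 1 fish was left out and 4 after thinning. With the depth covariate it was 0, at a median of −0.72, and with a log2 fold change threshold of 1 it was also 0. Over all alternatives the median of the 13 lay between −1.08 and −0.72. The cause of the lower values was not tested. NBH libraries held 14340624 to 19074355 counts in mild and 4955114 to 19185385 counts in severe fish. Of the NBH severe libraries, only replicate 5 held fewer than 16068471 counts. In NBH fish 6 of the 13 fell and 0 rose from mild to severe hypoxia, with a median of −0.98. Of all genes, 0.625% fell in NBH. The 6 mitochondrial mRNAs that fell in NBH were not the same set as in SC, and were ND2, ND3, ND4, ND4L, ND5 and ND6. In NBH ND1 did not pass the test (adjusted p = 0.092, edgeR). There ATP8 changed by 0.02 (adjusted p = 0.99) and ATP6 by 0.42 on the log2 scale.

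**Figure D5:**
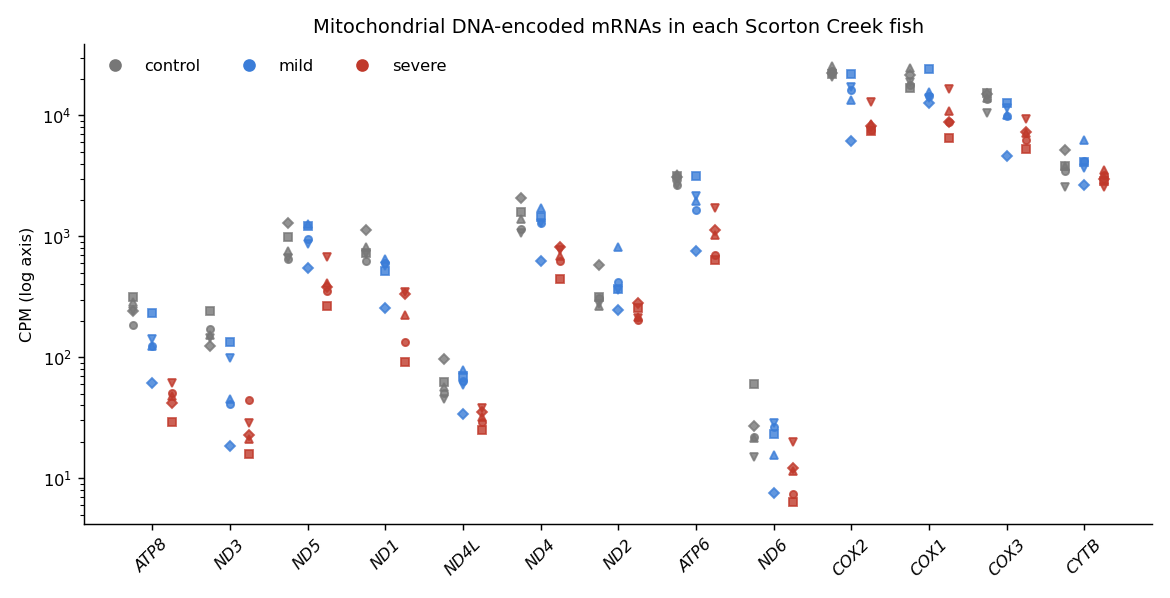
CPM on a log axis of 13 mRNAs encoded by mitochondrial DNA in each of the 5 SC fish per group, with marker shapes for replicate numbers 1 to 5 and genes ordered from the most negative log2 fold change. The severe fish lie lower on average in every gene and overlap the mild fish in every gene but ATP8, where mild replicate 4 (61.8 CPM) is just above severe replicate 5 (61.1 CPM).

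Of 9 erythrocyte markers listed, 4 were tested, with no globin gene among them. Of the 4, 1 fell, rhag, a red cell membrane transport protein, beside 0.882% of all genes called lower. All 4 had negative log2 fold changes (median −0.94). The summed level of this list was 35.5 to 63.7 CPM in mild fish and 25.4 to 49.1 CPM in severe fish. A wider set of 10 red cell genes was put together after values were seen and is given as a description only. Of these, 7 were called lower, beside 0.882% of all genes. Among the 7 were gata1a and tal1, transcription factors of the red cell lineage, gfi1b, sptb (a spectrin of the red cell skeleton), cahz (a carbonic anhydrase) and gpx1a. gata1a was at 3.40, 8.07, 3.51, 4.52 and 4.08 CPM in mild fish and 0.712, 0.702, 1.06, 1.21 and 2.34 CPM in severe fish, with no overlap (log2 fold change −1.96, SE 0.42, adjusted p = 0.00782, edgeR). rhag was at 3.78 to 9.47 CPM in mild fish and 1.17 to 3.55 CPM in severe fish. The other three members, hemgn, alas2 and slc4a1a, did not pass the test.

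Markers of other cell types were measured in the same livers, and none of those in this paragraph passed the test. Of 6 endothelial and 6 fibroblast and stellate markers, 0 were called, while all 12 had negative log2 fold changes (medians −0.47 and −0.70). Endothelial markers summed to 42.1 to 53.6 CPM in mild and 27.4 to 44.7 CPM in severe fish, and fibroblast markers to 25.9 to 52.2 and 19.8 to 33.6 CPM. Macrophage and neutrophil markers summed to 1.49 to 4.52 CPM in mild and 0.554 to 3.04 CPM in severe fish, with 4 of 4 log2 fold changes negative (median −0.80). For skeletal muscle markers, whose sums are given above, 5 of 5 were negative (median −2.24) and 4 had an unadjusted p under 0.05. Exocrine pancreas markers summed to 120 to 272 CPM in mild and 63.0 to 214 CPM in severe fish, bile duct markers to 209 to 330 and 220 to 313 CPM, and gut epithelium markers to 184 to 264 and 187 to 380 CPM. How much a difference in the cells of each liver took part in the red cell and collagen values was not tested.

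Of the other genes with the lowest log2 fold changes, leng8 (chromosome 3, 27059091 to 27072702) was at 23.3, 19.6, 19.5, 20.1 and 22.9 CPM in mild fish and 9.50, 7.28, 7.56, 8.30 and 9.12 CPM in severe fish, with no overlap and little spread (log2 fold change −1.34, SE 0.20, adjusted p = 0.000223, edgeR). ppp1r10, which encodes a nuclear regulator of protein phosphatase, fell from 9.14 to 4.37 CPM.

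The same step from mild to severe hypoxia in NBH fish was taken to see which SC differences were particular to SC. In NBH, 265 genes were called (1.95%), 180 higher (1.32%) and 85 lower (0.625%). Left without 1 fish the count was 109 to 481, lowest without NBH mild replicate 4 and highest without NBH mild replicate 3, and it was 165 without NBH severe replicate 5, the shallowest library at 4955114 counts. The methods of the study leave out an NBH severe fish that they do not name, and all fish were kept here. The test of the difference between the steps, SC minus NBH, called 22 genes (0.162%), 20 of them more positive in SC, and 1894 genes had an unadjusted p under 0.05. The adjusted p-values of these 22 lay close to the threshold, and edgeR called 0 under several alternatives, among them DESeq2's size factors and thinning, while DESeq2 itself called 216. They were pfkfb3, timm17a, dusp16, ifrd1, mak16, psme3, phka2, wdr43, bmf2, nsmaf, col4a5, id3, sdc4, polr1f, zgc:92606, hspbp1, zfand2a, brd2a and zpr1, with 3 genes that have only a locus name.

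pfkfb3 had a log2 fold change of 4.47 in SC and −1.26 (adjusted p = 0.34) in NBH, and the difference was 5.73 (adjusted p = 0.0459, edgeR). dusp16 stood at 2.40 in SC and −0.43 in NBH, a difference of 2.82, and zfand2a at 1.74 and 0.04, a difference of 1.70 (adjusted p = 0.0459 for each). For brd2a and mak16 the SC value was small (0.25 and 0.52, not called) and the NBH value negative (−1.34 and −0.88). phka2, polr1f and psme3 were not called in SC either (0.43, 0.60 and 0.48). In NBH they fell, by −0.82, −1.08 and −0.76 (adjusted p = 0.0139, 0.0228 and 0.0193, edgeR). For col4a5, a collagen of basement membranes, the SC value was −1.17 and the NBH value 1.28, with neither past the test.

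Most of the genes that changed widely in SC had no tested difference between populations. egln3 had a log2 fold change of 2.77 in NBH (adjusted p = 0.079), 4.92 below the SC value, and the difference had an adjusted p of 0.0887. bhlhe40 rose in NBH too, by 2.89 (adjusted p = 0.00019, edgeR), and the difference of 1.26 had an adjusted p of 0.285. jun rose by 3.37, trib3 by 2.80, per1b by 2.34 and hsp90aa1.2 by 3.10 on the log2 scale in NBH. For per2, the value was 0.06 in NBH against −1.77 in SC, and the difference of −1.83 had an adjusted p of 0.109. Of the 28 clock genes, 11 rose and 2 fell in NBH, beside 1.32% and 0.625% of all genes. Of those 11 and 2, 6 and 1 did so in SC as well. Of the 28, 0 differed between the populations. Of the 43 immediate-early genes 5 rose in NBH, with a median of 0.58 against 1.33 in SC, and 1 differed (dusp16).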

How the data were processed

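Livers of SC and NBH killifish were profiled by RNA-seq, with 5 fish in each of 6 groups. The authors trimmed stranded single-end reads of 50 bp with Trimmomatic, aligned them with STAR and deposited raw counts per gene from HTSeq-count. Methylation libraries of the series were not used here. Symbols were matched to a RefSeq gene table of assembly MU-UCD_Fhet_4.1, which gave the coordinates. Genes with too few counts were dropped by filterByExpr given the 6 groups, which left 13609 of 34089 genes with 99.9% of all counts. TMM scaling was used and all 30 fish were fitted in edgeR 4.0.16 (R 4.3.3) with 1 mean per group and the quasi-likelihood test. The difference between severe and mild hypoxia was taken as a contrast, and p-values were adjusted over all tested genes by the Benjamini-Hochberg method (threshold 0.05). Standard errors were derived from the F statistic and the fold change. CPM per fish are on TMM-scaled library sizes, means are arithmetic and SDs are over fish. Counts carry no molecular identifiers, so limits of zero counts cover counting error only. Steps were tested on simulated data.

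Named genes were the 12 highest and 12 lowest log2 fold changes among called genes. Each had a mean of at least 5 CPM over the 10 SC hypoxia fish, groups without overlap and more than a locus name. Added were up to 4 tested members of each gene list, those with the lowest adjusted p, called or not, and the HIF pathway genes. Further genes, members of the lists among them, were picked outside these rules, and the text does not always say so. The gene lists, tests and members were chosen with earlier results of these data known. Alternatives were DESeq2 (1.42.0), its size factors, no TMM factors, the newer edgeR method, other filters, only the groups compared, 29 fish (without NBH severe replicate 5), a replicate block, a log2 fold change threshold of 1, thinning, a depth covariate and leaving out each fish. No 2 libraries of a group were close enough to be duplicates, as the lowest chi-square per gene was 38.3.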

Additional observations from a re-analysis of the deposited data

Results flagged for a closer look

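In 127 genes looked at fish by fish, the highest or lowest of the 5 fish of a group was compared with the others on log2(CPM + 1), and 22 of 254 groups (8.66%) had a fish whose gap exceeded Dixon's limit, where chance gives about 1 in 20. Severe replicate 5 was the low fish in 4 of them, with atf3 at 2.49 CPM where the next fish had 20.3 CPM, zfand2a at 8.93 CPM, nr1d1 at 4.68 CPM and epas1b at 0.585 CPM, and the high fish for sptb at 2.34 CPM. Mild replicate 2 was high for pla2g3 (44.0 CPM) and sptb (6.79 CPM) and low for mak16 (8.45 CPM) and epas1a (2.05 CPM). Mild replicate 5 was high for junbb at 2.45 CPM and low for klf9 at 13.5 CPM and cry2 at 3.50 CPM. Mild replicate 1 was high for tdh at 18.5 CPM and slc38a3b at 11.7 CPM and low for bmf2 at 0.293 CPM. Mild replicate 3 was high for bhlhe40 at 4.06 CPM, and mild replicate 4 low for ND1 at 255 CPM. Severe replicate 1 was high for csnk1da (32.0 CPM), maff (16.2 CPM) and mogat2 (0.126 CPM, 3 counts, where the other severe fish had none). Severe replicate 2 was high for epas1a at 5.80 CPM, and severe replicate 4 low for zfp36l1a at 254 CPM.

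In 19 named genes the step from mild to severe hypoxia differed between SC and NBH by the interaction test in edgeR (adjusted p 0.0459 to 0.0462). Each was called in only 8 to 14 of the 31 or 32 alternatives that gave it a value. The difference in log2 fold change, SC minus NBH, was 5.73 for pfkfb3, 2.82 for dusp16, 2.65 for bmf2, 1.99 for nsmaf, 1.70 for zfand2a and 1.69 for polr1f. It was 1.59 for brd2a, 1.58 for hspbp1, 1.56 for ifrd1, 1.47 for zgc:92606, 1.41 for mak16, 1.37 for zpr1, 1.34 for sdc4 and 1.30 for id3. It was 1.25 for phka2, 1.24 for psme3, 1.09 for timm17a and 0.97 for wdr43, and −2.45 for col4a5.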

How the results depend on the processing

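Of the 395 SC genes, those with a value kept their direction under every alternative tried, and what moved was the count past the threshold. The SC count was 253 with only the groups compared fitted, 32 with a log2 fold change threshold of 1 and 213 with the depth covariate (82.6% of them higher), and 201 to 391 without 1 fish. The NBH count of 265 was 451 without TMM factors, 167 without a filter on low counts, 11 with only the groups compared, 165 with 29 fish, 3 with the fold change threshold and 645 with DESeq2, and 109 to 481 without 1 fish (lowest without NBH mild replicate 4, highest without NBH mild replicate 3). The 22 genes that differed between the populations were 0 with DESeq2 size factors, without TMM factors, with only the groups compared, with the fold change threshold and after thinning, 2 with the depth covariate, 35 with the newer edgeR method, 41 with 29 fish, 216 with DESeq2 and 0 to 154 without 1 fish. The study does not say whether replicate numbers pair the fish. The deviations of same-numbered mild and severe fish correlated at −0.18 to 0.22, and only mild replicate 5 was best matched by its own number. So few correlations cannot decide whether fish of a number had something in common. With a replicate block 307, 194 and 0 genes were called in SC, in NBH and in the difference. Named genes that changed sign, none of them called, were arnt (−0.23) and epas1b (−0.61) with the depth covariate and, without 1 fish, epas1b (−0.015 without mild replicate 1, to 0.26) and brd2a (−0.0096 without severe replicate 1, to 0.36). The causes were not tested. Depth limits the low genes most, since mild libraries held as few as 6867133 counts and 3 counts there are the limit behind each value of 0.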
